A study of Mus musculus with 11 samples.

Results

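The subject is a set of 5 endogenous small interfering RNA (endo-siRNA) entries of mouse sperm, endo-siRNA-Sp527, endo-siRNA-Sp521, endo-siRNA-Sp520, endo-siRNA-Sp532 and endo-siRNA-Sp40. They are 5 of the 712 endo-siRNA entries and of the 2304 features in the deposited count table, whose other 1592 features are mature miRNAs. They were selected on their measured levels, which were higher in sperm of Drosha conditional knockout (cKO) males than in wild-type (WT) sperm. Their Drosha cKO and WT levels are therefore given as a description, and no test of that difference is offered as support.

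Small RNA was sequenced in 11 libraries from adult mice of strain C57BL/6. Sperm from the cauda epididymis gave 3 Drosha cKO, 2 Dicer cKO and 2 WT libraries. Embryos at the 2PN (pronuclear) stage, made by injecting Drosha cKO, Dicer cKO or WT sperm into oocytes, gave 1 library per sperm genotype, and superovulated WT oocytes gave 1 library. The knockouts were germ-line specific and used Cre and loxP. No source used here gives the Cre driver or the males behind each library, so p-values measure only the spread between these libraries, which may be technical. The loss of Drosha or Dicer could not be checked, since the table holds no messenger RNA.

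Endo-siRNAs are short guide RNAs that Dicer cuts from long double-stranded RNA, such as hairpins or paired sense and antisense transcripts. Drosha, the nuclear enzyme that releases miRNA hairpins from their primary transcripts, is not needed for that pathway in the usual model, whereas most miRNAs need both enzymes. In the mouse, endo-siRNAs are best known from oocytes and have also been described in male germ cells. No source used here gives the sequence or genome position of any endo-siRNA entry, so overlap in sequence or locus among the 5 cannot be stated, and reads could be shared between entries of like sequence.

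Listed reads per sperm library ran from 12003 to 100934 in Drosha cKO, from 108141 to 122989 in Dicer cKO and from 73377 to 278890 in WT. Levels are given in RPM (reads scaled to a common library size) on the authors' scale, which divides reads by 1 whole number per library, from 412523 to 3743577. Listed reads made up 2.11% to 2.91% of that divisor in Drosha cKO, 4.43% and 7.01% in Dicer cKO, and 2.16% and 10.1% in WT sperm. A level in CPM is scaled to listed reads instead. Drosha cKO replicates 2 and 3 were shallow, so that 3 reads stood for 7.27 and 3.98 RPM there, against 0.801 RPM in Drosha cKO replicate 1, 1.08 and 1.95 RPM in Dicer cKO and 0.881 and 1.08 RPM in WT sperm. Intervals on single libraries are 95% exact Poisson intervals for levels and 95% exact (Clopper-Pearson) intervals for shares, and they cover counting error only.

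Endo-siRNA-Sp527 dominated the set. It had 1235, 938.1 and 721.3 RPM in the Drosha cKO libraries (4622, 387 and 544 reads), against 521.7 and 568.7 RPM in Dicer cKO sperm (1450 and 877 reads) and 179.2 and 257.8 RPM in WT sperm (610 and 715 reads). All 3 Drosha cKO libraries lay above both Dicer cKO libraries, and both Dicer cKO libraries lay above both WT libraries, with no overlap of the counting intervals between groups. Means were 964.8 ± 257.9 RPM in Drosha cKO (SD, n = 3), 545.2 ± 33.2 RPM in Dicer cKO (n = 2) and 218.5 ± 55.6 RPM in WT sperm (n = 2). Among all 2304 features it held positions 3, 8 and 5 by reads in the Drosha cKO libraries, against positions 23 and 31 in Dicer cKO and 31 and 52 in WT sperm.

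As a part of listed reads, endo-siRNA-Sp527 made up 4.58%, 3.22% and 3.42% in Drosha cKO sperm, against 1.18% and 0.811% in Dicer cKO and 0.831% and 0.256% in WT sperm. On this scale Dicer cKO and WT libraries overlapped, Dicer cKO replicate 2 lying just below WT replicate 1, while the Drosha cKO libraries stayed above the others. The ratio of means, Drosha cKO over WT, was 4.42 in RPM, 6.88 in CPM and 2.00 as a share of endo-siRNA reads. For Dicer cKO over WT it was 2.50, 1.83 and 1.81 on the same scales. The size of the difference thus rested on the denominator, and its direction was the same on these 3 scales.

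**Figure D1:**
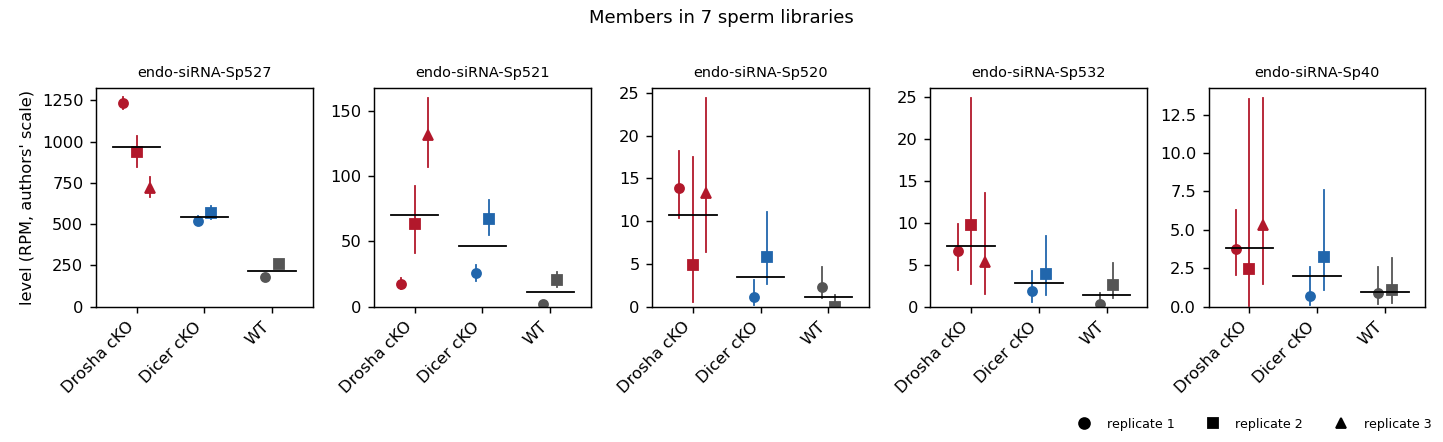
Level of the 5 endo-siRNA entries (RPM on the authors' scale, linear axes from 0) in each of the 7 sperm libraries, grouped as Drosha cKO, Dicer cKO and WT; symbols give the replicate number, vertical lines the 95% exact Poisson interval and horizontal lines the group mean. Endo-siRNA-Sp527 lies at 721.3 to 1235 RPM in Drosha cKO and 179.2 to 257.8 RPM in WT sperm, while endo-siRNA-Sp521 overlaps between these groups and the remaining entries rest on few reads with wide intervals.

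Endo-siRNA-Sp521 came next in abundance among the 5. It had 17.1, 63.0 and 131.3 RPM in Drosha cKO sperm (64, 26 and 99 reads), against 25.5 and 67.4 RPM in Dicer cKO sperm (71 and 104 reads) and 2.35 and 20.2 RPM in WT sperm (8 and 56 reads). Drosha cKO replicate 1 lay below WT replicate 2 in RPM, so these groups overlapped, whereas both Dicer cKO libraries lay above both WT libraries. In CPM Drosha cKO and WT did not overlap, at 634.1 to 6218 CPM in Drosha cKO and 109.0 to 200.8 CPM in WT sperm. The Drosha cKO mean was 70.5 ± 57.5 RPM (SD, n = 3), beside 46.5 ± 29.6 RPM in Dicer cKO and 11.3 ± 12.6 RPM in WT sperm (n = 2 each).

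The 3 remaining entries were scarce. Endo-siRNA-Sp520 had 52, 2 and 10 reads in Drosha cKO (13.9, 4.85 and 13.3 RPM), against 3 and 9 reads in Dicer cKO (1.08 and 5.84 RPM) and 8 and 0 reads in WT sperm (2.35 and 0 RPM). It was thus unread in WT replicate 2, where 3 reads would be 1.08 RPM, and its Drosha cKO and Dicer cKO ranges overlapped. Its 2 reads in Drosha cKO replicate 2 have an interval of 0.587 to 17.5 RPM, which covers the level of WT replicate 1. Endo-siRNA-Sp532 had 25, 4 and 4 reads in Drosha cKO (6.68, 9.70 and 5.30 RPM), against 5 and 6 reads in Dicer cKO (1.80 and 3.89 RPM) and 1 and 7 reads in WT sperm (0.294 and 2.52 RPM). Its Drosha cKO levels lay above those of both other groups, and Dicer cKO and WT overlapped. Its 4 reads in Drosha cKO replicate 3 have an interval of 1.445 to 13.58 RPM, which covers both Dicer cKO levels and WT replicate 2. Endo-siRNA-Sp40 had 14, 1 and 4 reads in Drosha cKO (3.74, 2.42 and 5.30 RPM), against 2 and 5 reads in Dicer cKO (0.720 and 3.24 RPM) and 3 and 3 reads in WT sperm (0.881 and 1.08 RPM). Its Drosha cKO and WT levels did not overlap, but its single read in Drosha cKO replicate 2 has an interval of 0.0614 to 13.5 RPM, which covers every WT level. In RPM, all Drosha cKO libraries lay above all WT libraries for 4 of the 5 entries, beside 24.5% of the 335 features tested. The choice of the entries fixes this direction, so nothing is read from this count.

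Together the 5 entries held 87.8%, 90.1% and 84.5% of endo-siRNA reads in Drosha cKO sperm, against 78.0% and 79.6% in Dicer cKO and 33.0% and 51.7% in WT sperm. Their summed level was 1276, 1018 and 876.5 RPM in Drosha cKO, against 550.9 and 649.1 RPM in Dicer cKO and 185.1 and 281.6 RPM in WT sperm. The other 707 endo-siRNA entries summed to 178.2, 111.5 and 160.4 RPM in Drosha cKO, against 155.4 and 166.6 RPM in Dicer cKO and 375.8 and 263.5 RPM in WT sperm. The summed level of all endo-siRNA entries was 1037 to 1454 RPM in Drosha cKO, 706.3 and 815.7 RPM in Dicer cKO and 560.8 and 545.1 RPM in WT sperm. In these RPM sums the 5 entries were higher in every cKO library than in either WT library. The other entries were lower in every cKO library than in either WT library. As a share of listed reads the other entries made up 0.661%, 0.383% and 0.76% in Drosha cKO and 0.351% and 0.238% in Dicer cKO. In WT sperm they made up 1.74% and 0.262%, so on that scale the groups overlapped.

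Endo-siRNA-Sp527 alone held 84.9% (95% exact interval 83.9 to 85.8), 83.0% (79.3 to 86.3) and 69.6% (66.2 to 72.8) of endo-siRNA reads in Drosha cKO sperm, against 73.9% (71.9 to 75.8) and 69.7% (67.1 to 72.2) in Dicer cKO and 31.9% (29.9 to 34.1) and 47.3% (44.8 to 49.8) in WT sperm. By this share Drosha cKO replicate 3 lay just below both Dicer cKO libraries, within the counting interval of the lower one. The 4 less abundant entries together held 2.85%, 7.08% and 15.0% in Drosha cKO, against 4.13% and 9.86% in Dicer cKO and 1.05% and 4.37% in WT sperm, so that the 3 groups overlapped for them. Entries with any read numbered 139, 24 and 50 in Drosha cKO, against 77 and 63 in Dicer cKO and 711 and 160 in WT sperm, of 712 in all. Nearly the whole list was thus read in WT replicate 1, and the part of the makeup of the list in these sums was not tested.

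**Figure D2:**
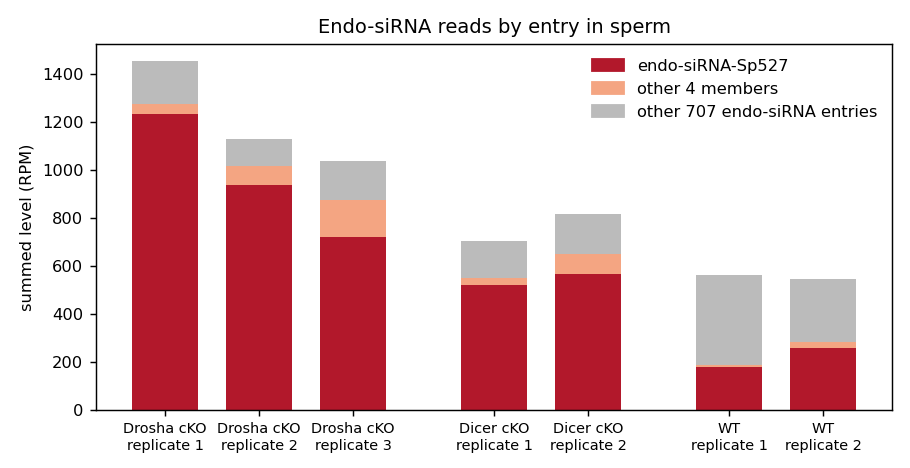
Summed endo-siRNA level in RPM (bars from 0) in each sperm library, split into endo-siRNA-Sp527, the 4 other entries of the set and the remaining 707 endo-siRNA entries. The whole bar is 1037 to 1454 RPM in Drosha cKO and 545.1 to 560.8 RPM in WT sperm, and endo-siRNA-Sp527 takes 69.6% to 84.9% of it in Drosha cKO, against 31.9% to 47.3% in WT sperm.

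Levels were also fitted across all features with edgeR's quasi-likelihood model on the counts of the 7 sperm libraries, scaled with TMM factors, which place the median feature near no change. Of 2304 features 335 passed the expression filter. All 5 entries passed it, as did 9 of the other 707 endo-siRNA entries. A filter that asks for enough reads in the smallest group keeps scarce entries that are high in some libraries, so the 14 tested endo-siRNAs do not stand for the whole list. The fitted log2 change, Drosha cKO over WT, was 2.05 (SE 0.46) for endo-siRNA-Sp527, 3.07 (SE 0.88) for endo-siRNA-Sp521, 2.81 (SE 1.12) for endo-siRNA-Sp520, 2.52 (SE 0.86) for endo-siRNA-Sp532 and 1.96 (SE 1.01) for endo-siRNA-Sp40. The fit called 4 of the 5 higher at an adjusted p under 0.05, endo-siRNA-Sp40 being the exception, beside 22.1% of features called higher, 33.1% called lower and 55.2% called either way. Since this difference chose the entries, the count is a description. The median change of the 5 was 2.52, beside −0.71 for the 9 other tested endo-siRNAs and 0.05 for all features tested. The choice of the entries favours this order too, so nothing is read from the medians.

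The count of 4 became 2 when any 1 of the 4 Dicer cKO and WT libraries was left out, and 1 without both shallow Drosha cKO libraries. The share of all features called higher fell as well, to between 6.5% and 11.1% with 1 of those 4 libraries left out and to 8.14% without both shallow libraries. Endo-siRNA-Sp527 was not called with the authors' divisor (log2 change 2.14) or without a low-count filter (1.82). In the 5 fits that left out libraries named here, its log2 change was 1.17 to 2.11. That of endo-siRNA-Sp521 was 1.89 without WT replicate 1 and 0.78 without both shallow Drosha cKO libraries. Endo-siRNA-Sp532 stood at 1.65 to 3.2 in these 5 fits. Endo-siRNA-Sp520 stood at 7.75 without WT replicate 1, when WT had 0 reads of it, and at 1.08 to 2.59 in the rest. The choice of the entries fixes the direction of this difference, so these calls and values only describe how the fit moves with its settings.

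The Dicer cKO libraries took no part in choosing the entries, but the WT libraries did, and entries picked for low WT levels lean towards higher Dicer cKO over WT values. With that limit, 0 of the 5 entries passed edgeR's test for Dicer cKO over WT in either direction, beside 16.1% of features called higher, 31% called lower and 47.2% called either way. At an unadjusted p under 0.05 the count was also 0 of 5, beside 175 of 335 features. DESeq2 called 0 (13.7% of features called higher), and limma on log2(RPM + 1) called 1, endo-siRNA-Sp521 (18.2% of features called higher). The change of endo-siRNA-Sp527 was 0.39 (SE 0.47, edgeR adjusted p = 0.523), with an approximate 95% interval of −0.53 to 1.31. Endo-siRNA-Sp521 stood at 1.43 (SE 0.87, edgeR adjusted p = 0.187, interval −0.28 to 3.13) and endo-siRNA-Sp532 at 0.31 (interval −1.52 to 2.15). Endo-siRNA-Sp520 stood at −0.01 (interval −2.44 to 2.42) and endo-siRNA-Sp40 at −0.09 (−2.29 to 2.11). These intervals are wide enough to hold a 4-fold rise for all of them except endo-siRNA-Sp527. A p that misses the threshold does not show that Dicer cKO and WT levels were alike.

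For endo-siRNA-Sp527 the Dicer cKO and WT groups did not overlap in RPM, but the fit found no call. The size of its fitted change depended on the scale, with no call under TMM factors or the authors' divisor. With the authors' divisor in place of TMM factors its log2 change was 1.32 (edgeR adjusted p = 0.255), and the median of all tested features moved to 0.88 from 0.03 in the TMM fit. In RPM both Dicer cKO libraries lay above both WT libraries for 2 of the 5 entries, endo-siRNA-Sp527 and endo-siRNA-Sp521, beside 43.6% of all features tested. With this scaling the median of all features also moved for Drosha cKO over Dicer cKO, to −0.90 from −0.01, and was −0.04 for Drosha cKO over WT, close to its 0.05 in the TMM fit.

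Set against Dicer cKO, the Drosha cKO libraries had a fitted log2 change of 1.66 (SE 0.45, approximate 95% interval 0.77 to 2.55) for endo-siRNA-Sp527, which is 3.16-fold. The change was 1.65 (SE 0.81) for endo-siRNA-Sp521, 2.82 (SE 1.07) for endo-siRNA-Sp520, 2.21 (SE 0.82) for endo-siRNA-Sp532 and 2.05 (SE 0.98) for endo-siRNA-Sp40. The edgeR test called 0 of the 5 and 0% of the 335 features, although at an unadjusted p under 0.05 it would have named 4 of the 5 and 65 features. DESeq2 called 1 of the 5, endo-siRNA-Sp527, beside 3.98% of features called higher, and limma on RPM called 0 of the 5 and 0% of features. The Drosha cKO libraries were used to choose the entries, so these values are not independent of the choice. The comparisons with WT and with Dicer cKO share the 3 Drosha cKO libraries and are given side by side only. In RPM every Drosha cKO library lay above every Dicer cKO library for 2 of the 5, endo-siRNA-Sp527 and endo-siRNA-Sp532, beside 5.67% of features. For endo-siRNA-Sp532 the counting intervals of Drosha cKO replicates 2 and 3, with 4 reads each, covered the level of Dicer cKO replicate 2. With the authors' divisor the endo-siRNA-Sp527 change was 0.82 with the median of all features at −0.90. Without both shallow Drosha cKO libraries endo-siRNA-Sp521 turned to −0.53.

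**Figure D3:**
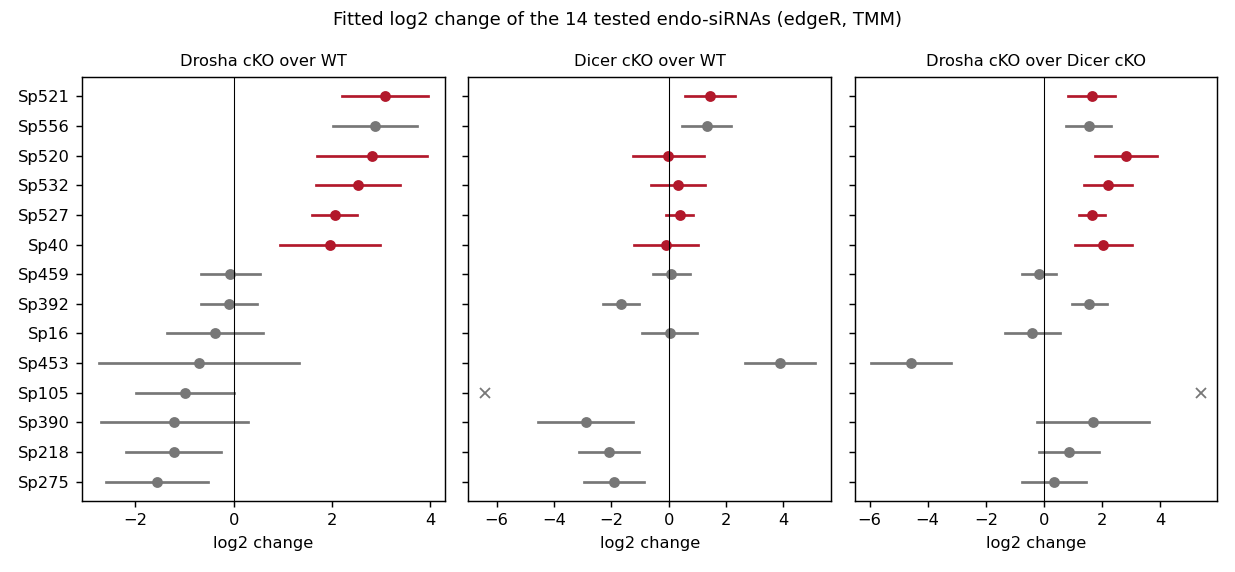
Fitted log2 change (points) with 1 SE (lines) of the 14 tested endo-siRNAs for Drosha cKO over WT, Dicer cKO over WT and Drosha cKO over Dicer cKO sperm, with the 5 entries of the set in red and ordered by the first panel; crosses mark endo-siRNA-Sp105, unread in Dicer cKO sperm, whose fitted value depends on the prior count and has no SE. The 5 entries lie at 1.96 to 3.07 in the first panel, between −0.09 and 1.43 in the second and at 1.65 to 2.82 in the third, and endo-siRNA-Sp556 lies beside them.

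The entries did not keep a fixed ratio to one another. For each 100 reads of endo-siRNA-Sp527, endo-siRNA-Sp521 had 1.39, 6.72 and 18.2 reads in Drosha cKO, against 4.90 and 11.9 in Dicer cKO and 1.31 and 7.83 in WT sperm. This within-library ratio needs no scaling, and its 3 groups overlapped. In each group the library numbered 1 had the lowest ratio, a pattern noticed after the values were seen. The labels do not say whether libraries with the same number share a batch or a day. Among libraries numbered 1, endo-siRNA-Sp521 was 7.28 times as high in RPM in Drosha cKO as in WT sperm and 10.9 times as high in Dicer cKO as in WT sperm. Among those numbered 2 the ratios were 3.12 and 3.34. For endo-siRNA-Sp527 they were 6.89 (Drosha cKO over WT) and 2.91 (Dicer cKO over WT) among libraries numbered 1, and 3.64 and 2.21 among those numbered 2. Both entries were higher in either cKO than in WT sperm within each number. The Drosha cKO and WT libraries were used to choose the entries, so nothing is read from this direction.

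For the scarce entries the ratio to endo-siRNA-Sp527 stayed low. Endo-siRNA-Sp520 had 1.13, 0.517 and 1.84 reads per 100 in Drosha cKO, against 0.207 and 1.03 in Dicer cKO and 1.31 and 0 in WT sperm. Endo-siRNA-Sp532 had 0.541, 1.03 and 0.735 in Drosha cKO, against 0.345 and 0.684 in Dicer cKO and 0.164 and 0.979 in WT sperm. Endo-siRNA-Sp40 had 0.303, 0.258 and 0.735 in Drosha cKO, against 0.138 and 0.570 in Dicer cKO and 0.492 and 0.420 in WT sperm. For all 3 the Drosha cKO and WT ranges of this ratio overlapped.

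**Figure D4:**
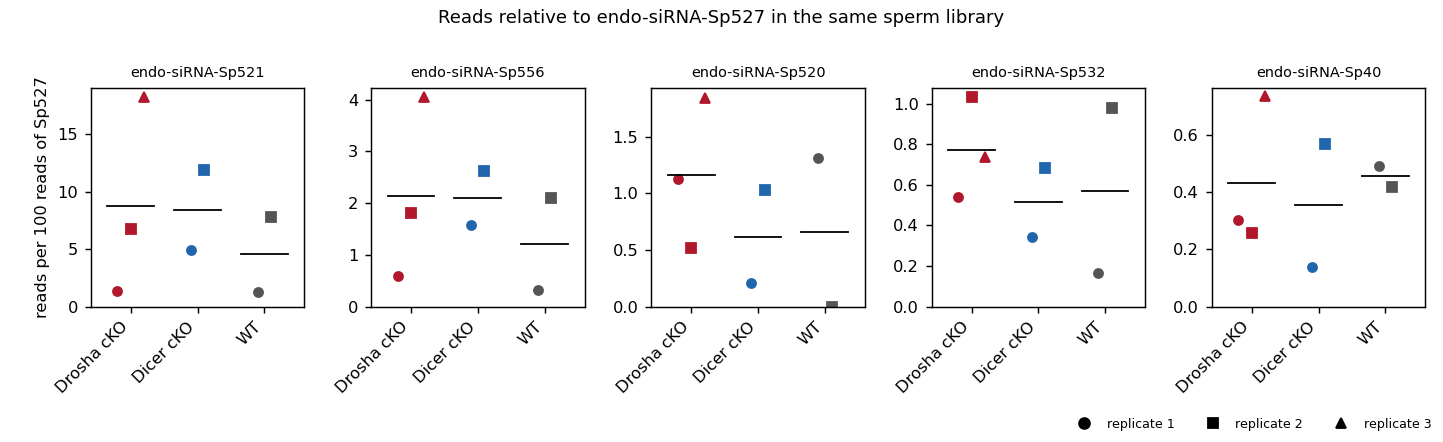
Reads of endo-siRNA-Sp521, endo-siRNA-Sp556, endo-siRNA-Sp520, endo-siRNA-Sp532 and endo-siRNA-Sp40 for each 100 reads of endo-siRNA-Sp527 in the same sperm library (linear axes from 0), grouped as Drosha cKO, Dicer cKO and WT, with symbols for the replicate number and horizontal lines for group means. Endo-siRNA-Sp521 spans 1.39 to 18.2 in Drosha cKO and 1.31 to 7.83 in WT sperm, so that the groups overlap.

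Endo-siRNA-Sp556 lay just outside the set. It was the 1 of the 9 other tested endo-siRNAs that the fit called higher in Drosha cKO than in WT sperm, at a log2 change of 2.87 (SE 0.85), above 4 of the 5 entries of the set. It had 7.21, 17.0 and 29.2 RPM in Drosha cKO, against 8.28 and 14.9 RPM in Dicer cKO and 0.588 and 5.41 RPM in WT sperm. In RPM neither cKO group overlapped WT, but the Drosha cKO replicate 1 interval, 4.75 to 10.5 RPM, covers WT replicate 2. As a share of endo-siRNA reads Drosha cKO and WT overlapped, with 0.496% the lowest in Drosha cKO and 0.992% the highest in WT. Like endo-siRNA-Sp521, endo-siRNA-Sp556 was lowest, relative to endo-siRNA-Sp527, in the library numbered 1 of each group. After endo-siRNA-Sp556 the highest of the other tested endo-siRNAs were endo-siRNA-Sp459 (−0.07) and endo-siRNA-Sp392 (−0.10), and the lowest were endo-siRNA-Sp275 (−1.57), endo-siRNA-Sp218 (−1.23) and endo-siRNA-Sp390 (−1.21). These values are not independent of how the set was chosen, and no gap between the set and the other entries is read from them.

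The names of 4 of the 5 entries fall close together, from Sp520 to Sp532. Among the 23 entries numbered 515 to 537, the 19 that are not in the set had 1 to 6 reads each in WT sperm and 0 reads in all 5 cKO sperm libraries, so none reached 10 reads. No source used here says what the numbers stand for. Reads were spread unevenly over the whole list: 198 of 711 numbered entries had any read in cKO sperm, 11 had a read in every cKO sperm library, and 13 had a read in every Drosha cKO library. All 5 entries of the set were among both the 11 and the 13. They were picked for higher Drosha cKO levels, which favours reads in those libraries, so nothing is read from this.

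**Figure D5:**
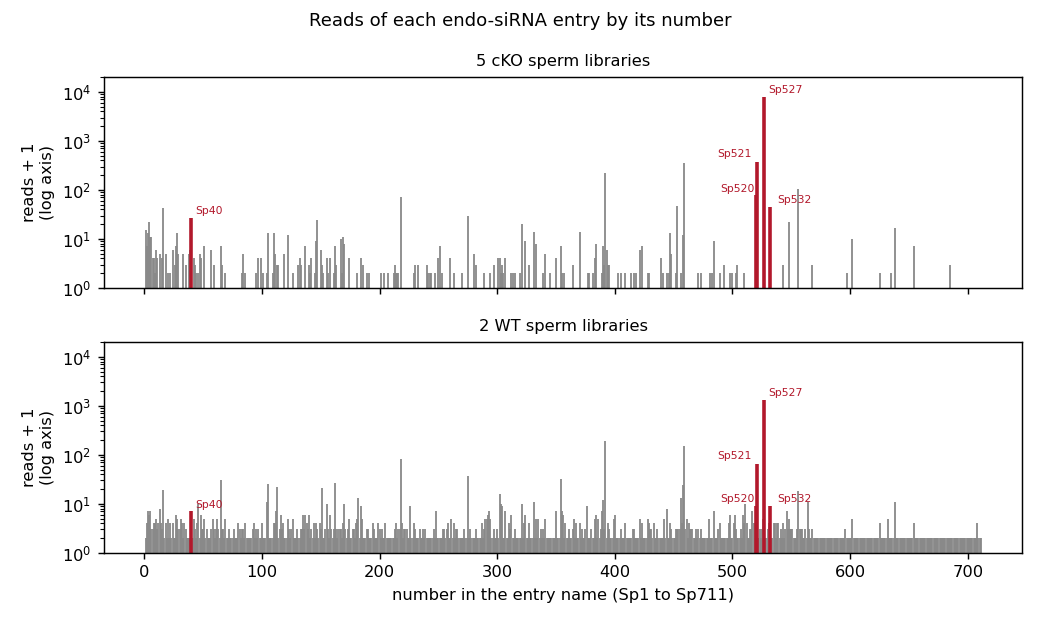
Reads plus 1 (log axis) of each numbered endo-siRNA entry, summed over the 5 cKO sperm libraries (top) and the 2 WT sperm libraries (bottom), along the number in the entry name; the 5 entries of the set are in red. Endo-siRNA-Sp527 stands highest in both panels, with 7880 reads in cKO and 1325 in WT sperm, and the entries numbered around it have no reads in cKO sperm apart from the others of the set.

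In oocytes and 2PN embryos the entries were nearly unread. Endo-siRNA-Sp527 had 1, 0 and 1 read in 2PN embryos from Drosha cKO, Dicer cKO and WT sperm (0.822, 0 and 1.15 RPM) and 7 reads in WT oocytes (6.19 RPM, interval 2.49 to 12.7). With 0 reads the 2PN library from Dicer cKO sperm allows up to 2.00 RPM, taking 3 reads as the limit of a count of 0. The ratio of the WT 2PN level to the oocyte level was 0.186, with a counting interval of 0.00413 to 1.45 that includes 1. The other 4 entries had 0 reads in all 4 libraries, which allows up to 2.47 RPM in 2PN embryos from Drosha cKO sperm, 2.00 RPM in those from Dicer cKO sperm, 3.46 RPM in those from WT sperm and 2.65 RPM in oocytes. These limits are above the mean WT sperm levels of endo-siRNA-Sp40 (0.982 RPM), endo-siRNA-Sp520 (1.175 RPM) and endo-siRNA-Sp532 (1.409 RPM). A difference from the WT sperm mean was thus not detectable for these entries at this depth. Endo-siRNA-Sp521 was above all the limits in WT sperm replicate 2 (20.2 RPM), but in replicate 1 (2.35 RPM) only above that of 2.00 RPM. All endo-siRNA entries together had 4, 1 and 6 reads in 2PN embryos from Drosha cKO, Dicer cKO and WT sperm and 13 in oocytes. With 1 library per group there is no replicate error and no test.

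The 5 features whose profiles over the 7 sperm libraries were closest to that of endo-siRNA-Sp527 were all miRNAs. Likeness was the root mean square difference between centred log2(CPM + 10) values, among the 334 other tested features, with no test attached. The closest was miR-8112 (0.391), followed by miR-542-3p (0.428), miR-744-5p (0.527), miR-6240 (0.548) and miR-221-5p (0.563). miR-542-3p had 2 to 25 reads in a sperm library and miR-221-5p 2 to 28, so their places rest on few reads. The distances of the scarce endo-siRNA-Sp40, endo-siRNA-Sp532 and endo-siRNA-Sp520 carry counting error as well. Entries of the set were further away, at 0.706 for endo-siRNA-Sp40, 0.719 for endo-siRNA-Sp532, 0.944 for endo-siRNA-Sp520 and 1.33 for endo-siRNA-Sp521. miR-8112 had 55.6, 36.4 and 49.1 RPM in Drosha cKO, against 32.4 and 53.8 RPM in Dicer cKO and 11.2 and 16.2 RPM in WT sperm. miR-6240 had 193.4, 109.1 and 110.1 RPM in Drosha cKO, against 92.5 and 148.5 RPM in Dicer cKO and 14.7 and 21.3 RPM in WT sperm. In both, cKO libraries lay above WT libraries in RPM and the 2 cKO groups overlapped. In CPM, on which the likeness was computed, the 2 cKO groups did not overlap. There miR-8112 had 1250 to 2324 CPM in Drosha cKO, against 731.8 and 767.5 CPM in Dicer cKO. For miR-6240 the values were 3749 to 7173 CPM in Drosha cKO and 2090 and 2118 CPM in Dicer cKO. Sequences of the endo-siRNA entries were not used here, so the mature sequences of these 5 neighbours in profile are given to show which RNAs they are, from RefSeq on GRCm38.p6, 5′ to 3′, with the seed (bases 2 to 8) in capitals.
miR-8112: uCUCCGCCaccuccaccgca
miR-542-3p: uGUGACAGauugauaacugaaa
miR-744-5p: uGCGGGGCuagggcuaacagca
miR-6240: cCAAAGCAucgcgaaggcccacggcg
miR-221-5p: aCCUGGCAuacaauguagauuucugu
No pair of them shares a seed. They come from chr6:71271745-71271764 (plus strand), chrX:53049415-53049436 (minus), chr11:65734799-65734820 (minus), chr5:114851973-114851998 (plus) and chrX:19146344-19146369 (minus), in the order listed. Their lengths are 20, 22, 22, 26 and 26 bases and their GC contents 70.0%, 31.8%, 63.6%, 69.2% and 38.5%.

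Some miRNAs bypass the Microprocessor, the complex that holds Drosha, and in that respect resemble endo-siRNAs. Among 15 such miRNAs listed, 5 were tested. For Drosha cKO over WT edgeR called 0 of 5 at an adjusted p under 0.05, beside 55.2% of all features called either way. At an unadjusted p under 0.05 the count was also 0, beside 204 of 335 features. The median log2 change of the 5 miRNAs was 0.71. Their log2 changes were 0.43 for miR-320-3p (SE 0.84), 0.71 for miR-484 (SE 0.81), 1.20 for miR-1981-5p (SE 0.76), 0.91 for miR-1839-5p (SE 0.70) and 0.07 for miR-1839-3p. For Dicer cKO over WT 0 of 5 were called as well, with a median of 0.26, beside 47.2% of all features called either way. At an unadjusted p under 0.05 the count was 0, beside 175 of 335 features. The summed level of all 15 was 31.5 to 63.3 RPM in Drosha cKO and 66.8 to 82.4 RPM in Dicer cKO. In WT sperm it was 25.9 to 28.1 RPM. As a share of listed reads it was 0.108% to 0.235% in Drosha cKO and 0.0953% to 0.186% in Dicer cKO. Both ranges overlapped the WT range of 0.0280% to 0.120%. The difference between this list and the 5 entries was not tested.

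Markers of other cell types moved in the same libraries. The 11 epithelial entries of the miR-200, miR-141, miR-429 and miR-205 group summed to 11.9% to 14.6% of listed reads in Drosha cKO, 13.7% to 16.4% in Dicer cKO and 1.67% to 1.85% in WT sperm, with none at 0 in any group. At an adjusted p under 0.05 edgeR called all 9 tested epithelial entries higher in Drosha cKO than in WT, beside 22.1% of all features. For Dicer cKO over WT it called 8 of 9 higher, beside 16.1% of all features. As log2 changes of Drosha cKO over WT and then Dicer cKO over WT, miR-200c-3p stood at 1.84 and 2.24, miR-200b-3p at 1.94 and 2.50, and miR-200a-3p at 1.90 and 2.59. The 14 blood cell entries summed to 2.26% to 2.56% in Drosha cKO, 5.17% in both Dicer cKO and 0.528% to 0.544% in WT sperm. Of their 8 tested members, 4 were called higher and 1 lower in Drosha cKO, beside 22.1% and 33.1% of all features. In Dicer cKO 5 were called higher, beside 16.1% of all features. The red cell miRNA miR-451a stood at 1.41 and 3.07, its partner miR-144-3p at 2.24 and 2.86, and the leukocyte miR-142-3p at −0.79 and 1.13, of which neither miR-142-3p value was called. The blood entries unread in Drosha cKO were miR-142a-5p, miR-150-3p, miR-155-3p, miR-223-5p, miR-486-3p and miR-486a-3p. Of those, miR-142a-5p, miR-155-3p, miR-223-5p and miR-486a-3p were unread in Dicer cKO, and miR-142a-5p, miR-155-3p and miR-486a-3p in WT sperm.

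The 9 stromal and smooth muscle entries summed to 1.14% to 1.77% in Drosha cKO, 1.95% to 2.73% in Dicer cKO and 0.342% to 0.854% in WT sperm, with miR-145a-3p unread in Drosha cKO and WT. Of 6 tested, edgeR called 0 in Drosha cKO, beside 55.2% of all features called either way. At an unadjusted p under 0.05 the count was also 0, beside 204 of 335 features. In Dicer cKO 2 were called higher, beside 16.1% of all features. miR-143-3p stood at 0.91 and 1.58, miR-145a-5p at 0.77 and 1.90, and miR-199a-3p at −0.02 and 0.77. The 34 male germ cell entries summed to 1.95% to 3.43% in Drosha cKO and 1.18% to 1.20% in Dicer cKO. In WT sperm they summed to 21.98% to 24.8%. All 28 tested were called lower in both cKO groups, beside 33.1% of all features in Drosha cKO and 31% in Dicer cKO. miR-34c-5p stood at −4.19 and −5.31, miR-34b-5p at −4.18 and −5.13, and miR-34b-3p at −3.65 and −5.62. In RPM the epithelial sum was 2523 to 4264 in Drosha cKO and 6058 to 11530 in Dicer cKO, and the blood sum 539.7 to 661.8 in Drosha cKO and 2287 to 3621 in Dicer cKO. As given above, the epithelial shares of listed reads overlapped between Drosha cKO and Dicer cKO, and edgeR called 0 of the 9 tested epithelial and 0 of the 8 tested blood entries for Drosha cKO over Dicer cKO, beside 0% of all features (2 and 4 at an unadjusted p under 0.05). In bulk samples fewer cells of a type and less RNA per cell cannot be told apart, and the part of other cell types in the levels of the 5 entries was not tested.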

How the data were processed

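Small RNA was sequenced in 11 libraries. The authors deposited raw counts of reads per mature miRNA or endo-siRNA entry. The authors' RPM table divides each count by 1 whole number per library, and no source used here says what it counts. The submitters' processing notes name Bowtie and mm10, with no role or order given. No source used here gives versions, the counting rule or where the endo-siRNA entries come from. The series description names an Ion Torrent Proton and duplicates, the labels' protocols an Illumina library preparation and 1 to 3 libraries per group; the labels were followed.

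Counts of all 7 sperm libraries were fitted with edgeR 4.0.16 (R 4.3.3; TMM, default expression filter, two-sided quasi-likelihood test, Benjamini-Hochberg adjustment over 335 features, threshold 0.05; common biological coefficient of variation 0.459). TMM factors ran from 1.20 to 1.31 in Drosha cKO, were 1.05 in both Dicer cKO and 0.907 and 0.493 in WT libraries. SE is the size of the unshrunk log2 change over the square root of its F value, and approximate 95% intervals use the normal quantile. The fitting code was tested on simulated data. Alternatives used DESeq2 1.42.0 and limma 3.58.1 (log2 of RPM plus 1). Libraries of a group differed beyond counting error (chi-square per degree of freedom 5.74 to 42.0, over entries with at least 10 reads), so none was merged. No group holds enough samples for an outlier test.

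The members and lists were chosen with earlier results of these data known. Named were the 5 entries, the 3 highest and 3 lowest other tested endo-siRNAs, entries numbered 515 to 537 with at least 10 reads, the 5 features closest in profile, the tested Microprocessor-independent miRNAs and the 3 most abundant tested members of each marker list.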

Additional observations from a re-analysis of the deposited data

How the results depend on the processing

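The count of entries called higher in Drosha cKO than in WT sperm was 4, beside 22.1% of features called higher. It became 2 with the authors' divisor (6.87% of features), 0 without a low-count filter (0.64%, median of all features −0.84), 2 with at least 10 CPM in 2 libraries (3.7%) and 1 without both shallow Drosha cKO libraries (8.14%); leaving out 1 library gave 2 to 4 (6.5% to 24.6%). Endo-siRNA-Sp40 could not be tested without Drosha cKO replicate 1 or 3, nor it, endo-siRNA-Sp520 and endo-siRNA-Sp532 with only the Dicer cKO and WT groups. For Dicer cKO over WT the count of 0 (16.1% of features) became 1 with library totals alone (30.1%), with only the 2 groups compared (31.8%), with limma on RPM (18.2%) and with the replicate number as a block (19.7%), the entry being endo-siRNA-Sp521 in these 4; leaving out 1 library gave 0 to 1 (4.75% to 20.4%). For Drosha cKO over Dicer cKO the count of 0 (0% of features) became 1 with library totals alone (3.28%), 2 with only the 2 groups compared (7%), 1 with DESeq2 (3.98%) and 1 with the replicate block (1.79%); leaving out 1 library gave 0 to 2 (0% to 7.25%), the 2 arising without WT replicate 1 or 2. The cause was not tested.

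The Dicer cKO over WT log2 change of endo-siRNA-Sp527 (0.39) lay between −0.49 and 0.88 when 1 library was left out and was called in none of those fits; it was −0.49 with WT replicate 2 left out and −0.37 with Dicer cKO replicate 1 left out. That of endo-siRNA-Sp532 turned to −0.16 without WT replicate 1. Around 0, endo-siRNA-Sp520 (−0.01) changed sign with DESeq2 size factors (0.19), library totals (0.40), the authors' divisor (1.40), TMM on miRNAs (0.05), no filter (0.42), the 10 CPM filter (0.41), the replicate block (0.45) and limma (1.04); leaving out 1 library gave −1.78 to 5.28, the highest without WT replicate 1, when WT had 0 reads. Endo-siRNA-Sp40 (−0.09) did so with DESeq2 size factors (0.14), library totals (0.56), the authors' divisor (0.88), TMM on miRNAs (0.02), no filter (0.41), the 10 CPM filter (0.47) and limma (0.45), with −1.14 to 0.38 when 1 library was left out. The Dicer cKO over WT ratio of mean levels of endo-siRNA-Sp520 was 2.94 in RPM and 0.987 in CPM. For Drosha cKO over Dicer cKO, endo-siRNA-Sp521 turned to −0.53 without both shallow Drosha cKO libraries. All 5 entries were positive for Drosha cKO over WT under every alternative that tested them. The choice of the entries fixes this direction, so nothing is read from it.

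Replicate numbers are shared between groups, but the labels do not say that they mark a batch. Deviations of same-numbered libraries correlated at 0.15 to 0.28 across features, over 2 shared numbers; in groups of 2 these values are not independent. With the replicate number as a block, 4 of the 5 were called for Drosha cKO over WT, and endo-siRNA-Sp521 stood at 2.02. The block turned the edgeR adjusted p of endo-siRNA-Sp521 for Dicer cKO over WT to 0.0333 and that of endo-siRNA-Sp527 for Drosha cKO over Dicer cKO to 0.0447. Depth limits the scarce entries: both shallow Drosha cKO libraries hold 1 to 10 reads of each of endo-siRNA-Sp520, endo-siRNA-Sp532 and endo-siRNA-Sp40.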
